A study of Rattus norvegicus with 24 samples.

Results

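Urethra samples (4) from rats that received VEGF-overexpressing mesoangioblasts, collected at day 7, were compared by their functional label, 2 urethras labelled as recovery and 2 without that label, out of 24 samples in the whole series. The samples were chosen by their labels alone: replicates 6 and 7 carry the word recovery and replicates 11 and 12 do not. All came from female virgin Sprague-Dawley rats of 12 weeks that underwent simulated vaginal delivery (SVD), a crush of the pudendal nerve with distension of the vagina. They then received an intra-aortic injection of MABs allo-VEGF, allogeneic mesoangioblasts grown from hind limb muscle and transduced with a lentivirus that drives VEGF165 and a truncated CD34 from the SFFV promoter. The labels give these 4 samples the genotype VEGF OE, and in the methods the overexpression lies in the injected cells and not in the rats. The 8 other samples of day 7, 4 from rats given saline and 4 from rats given MABs allo without the VEGF165 vector (genotype WT), all after the same injury, served only as a reference range. Function was the frequency of bursting of the external urethral sphincter, seen by micro-ultrasound, and no label gives its value for a single sample. The labels do not say that each sample is a separate rat. In the text, recovered urethras are those with the label and other urethras those without it.

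Mesoangioblasts are vessel-associated progenitors that can contribute to skeletal and smooth muscle. VEGF is a secreted ligand of endothelial receptor kinases and also acts on nerve and muscle cells. The urethra holds an outer sphincter of striated muscle supplied by the pudendal nerve, an inner smooth muscle layer, vessels, glands and a lining epithelium, and bursting of the sphincter needs both its muscle and its nerve.

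Whole-tissue RNA was sequenced from the 3ʹ end of transcripts, and the table holds normalized gene counts, that is read counts divided by a size factor for each sample. The recovered urethras had 5415577 and 6232713 reads and the other urethras 6288841 and 5891044, and 1 read was worth 2.85 to 3.63 normalized counts in these 4 samples. In bulk tissue, fewer cells of a type and less RNA per cell cannot be told apart. The defining markers of smooth muscle (Acta2, Myh11, Tagln, Des), striated muscle (Acta1, Ckm, Myh4, Mylpf) and urothelium (Upk1a, Upk1b, Upk3a) were present in all 4 urethras, while the B cell markers Ms4a1 and Cd79a were at 0 in all of them. Across 12799 genes, the log2 values of the recovered urethras had a Pearson correlation of 0.939 with each other, and those of the other urethras 0.905. Recovered replicate 7 and other replicate 12 correlated at 0.934, nearly as closely as the recovered pair. Other replicate 11 stood apart, with correlations of 0.905 to 0.909 to the remaining urethras. Milk protein and mammary genes, a list chosen after their values were seen, took 1.62% of its reads, against 0.00159% to 0.00369% in the remaining 3, and Schwann cell and myelin genes took 0.373%, against 0.0724% to 0.099%. The casein gene Csn2 had 69666 normalized counts in replicate 11 and 8.56 to 108.8 in the other 3. In the reference the milk genes took at most 0.373% of reads, in saline replicate 3. The part of this tissue composition in the results was not tested, and values without 1 of the 4 urethras are given where a result rests on it.

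Few genes separated recovered from other urethras beyond the spread between replicates. The test was limma on log2(normalized count + 1) across the 12799 genes with a mean of at least 10 normalized counts in the 4 urethras, two-sided with Benjamini-Hochberg adjustment, and genes were called differentially expressed (DEGs) at an adjusted p under 0.05 with a log2 difference beyond 1. RT1-Bb was higher (1 gene, 0.00781% of those tested) and LOC102555453 was lower (1 gene, 0.00781%) in recovered urethras, and 615 genes had an unadjusted p below 0.05. With edgeR on the recovered reads 4 genes were DEGs, with C3 and RT1-N2 added as lower, and with DESeq2 36 were (14 higher, 22 lower). The 36 include, among genes described in the text, RT1-Bb, RT1-T24-4, Oprpn, Vcsa2, Smr3b, Fdcsp, Actb, Krt4 and Rbfox3 as higher and LOC102555453, LOC102549726, RT1-N2, RT1-CE4, C3, Ighm, Cxcl3, Gpnmb, Cyp1a1, Myh3 and Rspo1 as lower. A fit with all 12 samples of day 7, in which other groups share the estimate of the spread, called 0 genes with limma (538 at an unadjusted p below 0.05). Both recovered urethras were above both other urethras for 2481 genes (19.4% of those tested) and below both for 2088 genes (16.3%). With a mean log2 difference beyond 1 in addition, 598 genes were higher (4.67%) and 492 lower (3.84%). The mean was higher in recovered urethras for 52.1% of all genes, with a median log2 difference of 0.02. These shares are the background for every count below. For a single value, 2 samples against 2 cannot give a two-sided exact permutation p under 0.333.

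**Figure D1:**
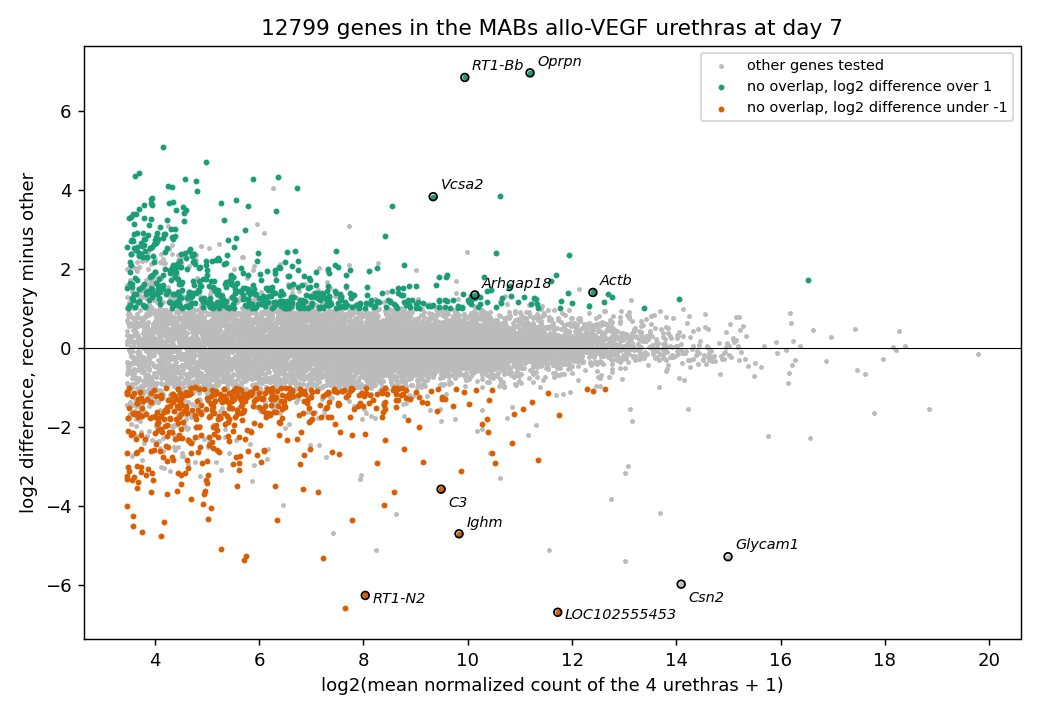
Each point is 1 of 12799 genes, plotted by the log2 mean normalized count of the 4 MABs allo-VEGF urethras at day 7 (horizontal) and by the mean log2 difference of the 2 recovered minus the 2 other urethras (vertical). Green and orange points are the 598 and 492 genes without overlap and beyond a log2 difference of 1; RT1-Bb and LOC102555453 passed the test, and the milk genes Csn2 and Glycam1 overlapped between groups.

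For most of these genes neither group lay wholly beyond the reference. Of the 598 higher genes, the recovered urethras alone were both above all 8 reference samples for 80, the other urethras alone were both below them for 57, both held for 2, and neither held for 459. Of the 492 lower genes, the recovered urethras alone were both below the reference for 54, the other urethras alone were both above it for 52, both held for 1, and neither for 385. Over all genes tested, both recovered urethras were above the reference for 2.19% and below it for 2.06%, and both other urethras were above it for 1.93% and below it for 1.8%.

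Several of the most clearly separated genes belong to the RT1 complex, the rat major histocompatibility complex (MHC), whose products present peptides to T cells. RT1-Bb encodes the beta chain of a class II molecule that pairs with the alpha chain RT1-Ba on antigen-presenting cells. RT1-Bb had 1491 and 2413 normalized counts in recovered replicates 6 and 7, and 12.4 and 18.9 in other replicates 11 and 12. The groups were far apart, with a log2 difference of 6.86 (standard error 0.43, adjusted p = 0.0167 from limma). The adjusted p was 0.998 with the 12 samples of day 7 in the fit, where the wide spread of the gene in the reference enters. RT1-Ba had 1103 and 1004 normalized counts in the recovered and 723.1 and 1519 in the other urethras, so that the levels of its partner chain overlapped (log2 difference 0.01, standard error 0.38). The promoters of this pair, from RefSeq on GRCr8, are shown since one partner was a DEG and the levels of the other overlapped. They run from 250 bases before the annotated start to 50 bases after it and read 5′ to 3′, with every CCAAT on either strand in capitals, the core of the Y box of class II promoters. RT1-Bb lies at chr20:4604069-4604368 (- strand) and RT1-Ba at chr20:4576807-4577106 (+ strand).
RT1-Bb: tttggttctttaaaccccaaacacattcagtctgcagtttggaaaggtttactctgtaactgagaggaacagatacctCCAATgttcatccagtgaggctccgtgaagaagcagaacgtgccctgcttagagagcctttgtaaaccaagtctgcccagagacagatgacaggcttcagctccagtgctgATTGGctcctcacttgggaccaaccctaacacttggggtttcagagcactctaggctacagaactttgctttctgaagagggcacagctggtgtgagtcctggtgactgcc
RT1-Ba: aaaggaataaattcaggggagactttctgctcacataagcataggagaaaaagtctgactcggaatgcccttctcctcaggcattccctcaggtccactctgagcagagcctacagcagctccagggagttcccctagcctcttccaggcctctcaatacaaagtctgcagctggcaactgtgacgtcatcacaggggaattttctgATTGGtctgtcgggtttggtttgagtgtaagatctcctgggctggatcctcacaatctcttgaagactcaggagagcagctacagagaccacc
Both hold the letters CCAAT on at least 1 strand, as do 37.5% of the 33469 promoters in the RefSeq table.

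The same RT1 genes also split the samples that were not part of the comparison. In saline samples RT1-Bb had 13.5 and 6.29 normalized counts in replicates 1 and 5, and 945.9 and 1273 in replicates 2 and 3. After MABs allo it had 29.1 in replicate 13 and 950.8 to 2661 in the remaining 3. Levels of 29.1 or less were thus present in 3 of 8 reference samples and levels of 945.9 or more in 5 of 8. The reference samples carry no functional label. The study reports measurable sphincter function on this day only for rats given MABs allo-VEGF, and so none for either reference group. High levels of this gene, as in the recovered urethras, were thus not limited to the group with measurable function. RT1-N2, a class I gene, ran the opposite way, with 3.63 and 8.56 normalized counts in recovered and 471.7 and 561.1 in other urethras (log2 difference -6.28, standard error 0.60, adjusted p = 0.108 from limma, 0.0409 from edgeR). Its highest reference values, 192.8, 657.2 and 83.0, were in the 3 reference samples with low RT1-Bb, and the other 5 had at most 8.34. RT1-CE4, another class I gene, had 529.6 and 493.5 normalized counts in recovered and 1899 and 2011 in other urethras (log2 difference -1.93, standard error 0.23, adjusted p = 0.189 from limma). In the same 3 reference samples it had 1164, 1773 and 2652, against at most 573 in the other 5. RT1-T24-4 had 1001 and 1167 normalized counts in the recovered and 329 and 286.9 in the other urethras, and 182.4 to 935.4 in the reference. LOC102549726, a provisional symbol, had 54.4 and 54.2 against 533.8 and 895.3, and 342.7 to 537.8 in the 3 samples with low RT1-Bb against at most 100.5 in the other 5. These comparisons with single samples were made after the values were seen. Of 31 genes with the prefix RT1 in the table, a list also taken after values were seen, 16 passed the filter, 3 were without overlap and higher in recovered urethras, 7 lower, and their median log2 difference was -0.25, or -0.53 without replicate 11. The prefix RT1 covers genes of class I and class II, some of them closely similar copies. Since reads that mapped to several places were discarded, counts of such copies are uncertain. Which of the genes named here this affects was not tested.

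LOC102555453, a provisional gene symbol with 2 Ensembl entries, was the other DEG. Its entry ENSRNOG00000029115 had 87.1 and 45.6 normalized counts in recovered and 7324 and 6084 in other urethras, and the log2 difference was -6.70 (standard error 0.36). The limma test gave an adjusted p of 0.0141 in the 4 urethras and 0.998 with the 12 samples of day 7. In the reference it had 4888 and 1981 in saline replicates 1 and 5 and 46.9 to 102.2 in the other 6 samples. Those replicates are 2 of the 3 reference samples with low RT1-Bb, and the third, MABs allo replicate 13, had 83.0. The second entry under this symbol, ENSRNOG00000028993, had 94.3 and 116.9 in recovered and 65.2 and 116.6 in other urethras. Copies with shared sequence make both counts uncertain.

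**Figure D2:**
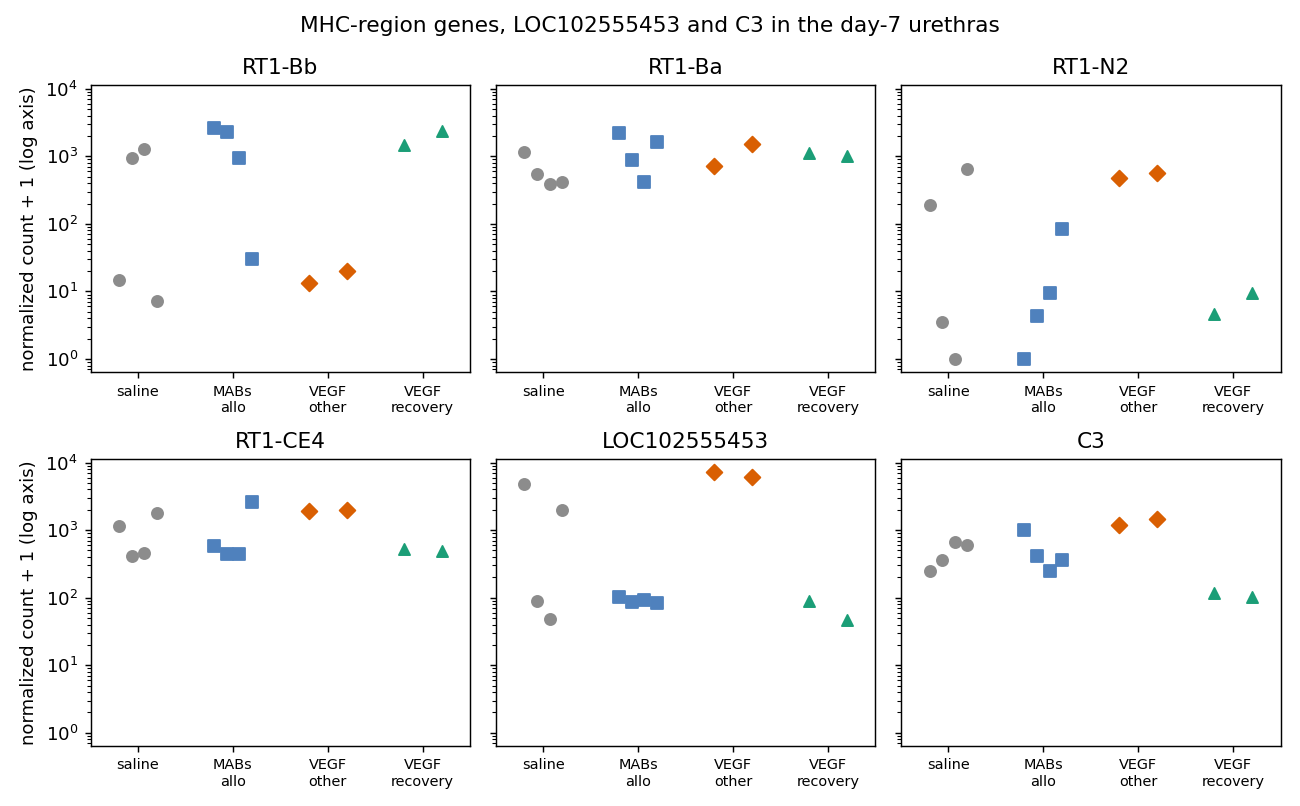
Normalized counts + 1 on a log axis for 6 genes in each of the 12 urethras of day 7, with 1 point per sample (grey circles saline, blue squares MABs allo, orange diamonds other and green triangles recovered MABs allo-VEGF urethras). RT1-Bb, RT1-N2 and RT1-CE4 split 3 of the 8 reference samples from the other 5 as they split the MABs allo-VEGF urethras, RT1-Ba does not, and C3 lies beyond the reference range on both sides.

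C3, the central component of complement, was the gene closest to the threshold whose values in both groups lay outside the reference. It had 116.1 and 102.7 normalized counts in recovered and 1189 and 1463 in other urethras, and 246.9 to 991.2 in the 8 reference samples. Recovered urethras were below and other urethras above every reference value. The log2 difference was -3.58 (standard error 0.29), with an adjusted p of 0.0549 from limma and 0.0395 from edgeR, and it was 0.451 from limma with the 12 samples of day 7. Ighm, the heavy chain of IgM, had 47.2 and 65.6 in recovered and 810 and 2720 in other urethras, 4.71 lower on the log2 scale (standard error 0.59, adjusted p = 0.241 from limma, 0.315 from edgeR and 1.7e-12 from DESeq2). Its reference values ran from 69.5 to 3125. Cd8a, the co-receptor of cytotoxic T cells and one of 8 B and T cell genes tested, had 3.63 and 8.56 against 59 and 28.4 normalized counts. Of these 8 genes 2 were without overlap and lower, 0 higher, with a median log2 difference of -0.80. That median was -1.55 without replicate 6, -0.08 without replicate 7, -1.80 without replicate 11 and 0.14 without replicate 12, so its direction rests on replicate 12.

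Most chemokine genes had lower means in recovered urethras, and Cxcl3 was the 1 member that any of the 3 tools called, with DESeq2 alone. Of 18 chemokine and cytokine genes tested, 15 had a lower mean, 5 were lower without overlap and beyond a log2 difference of 1, and 3 were higher in that way, with a median of -0.55, or -0.95 without replicate 6. Cxcl3, a neutrophil attractant, had 47.2 and 48.5 normalized counts in recovered and 263.8 and 375.1 in other urethras (log2 difference -2.69, standard error 0.41, adjusted p = 0.407 from limma, 0.449 from edgeR and 0.00122 from DESeq2). Cxcl1, which acts on the same receptor, had 108.8 and 134.1 against 921.7 and 154.5, a difference carried by replicate 11, and both recovered urethras were below the reference range of 271.3 to 5358. Ccl5, a T cell attractant, had 47.2 and 34.2 against 65.2 and 346.8. In contrast, the lymphoid chemokine Ccl19 had 156 and 216.8 against 49.7 and 110.3 normalized counts. For 5 of the 18 genes both recovered urethras were below all 8 reference samples, and for 2 both other urethras were. Of 20 genes of the TNF and IL1 response, 3 were higher and 4 lower without overlap, none beyond a log2 difference of 1, and the median was -0.12, or -0.06 without replicate 7.

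Macrophage genes had no stable direction as a group. Of 20 tested, 1 was higher and 5 lower without overlap, with a median of -0.17 that ran from -0.61 without replicate 6 to 0.20 without replicate 7 and was 0.09 without replicate 11. Gpnmb, a glycoprotein of lipid-laden and repair macrophages, had 1556 and 1107 normalized counts in recovered and 2933 and 3969 in other urethras, with a reference of 2277 to 4739, so that recovered urethras were below every reference sample (log2 difference -1.38, adjusted p = 0.875 from limma, 0.896 from edgeR and 0.0358 from DESeq2). Cd68, a lysosomal macrophage marker, had 362.8 and 182.6 against 524.5 and 535.9 normalized counts. Of 20 interferon and MHC genes tested, RT1-Bb was the 1 gene higher without overlap and 3 were lower, with a median of -0.10. The median was -0.50 without replicate 11, -0.23 without replicate 7, 0.0062 without replicate 6 and 0.13 without replicate 12. Ciita, the master activator of class II genes, had 25.4 and 37.1 against 59 and 91.4 normalized counts, and Tap1, a peptide transporter of the class I pathway, 453.4 and 542 against 555.5 and 841.7. Mast cell genes (10 tested) had a median of -0.39, which was -0.11 without replicate 6, 0.02 without replicate 11 and -1.18 without replicate 12. Kit, the stem cell factor receptor, had 163.2 and 188.3 against 605.1 and 384.6 normalized counts. The 7 neutrophil genes tested had a median of 1.24, which moved to -0.38 without replicate 11 and 2.53 without replicate 12. Of the 7, 1 was higher and 2 lower without overlap. The higher gene was Mmp8, with 94.3 and 28.5 normalized counts against 6.21 and 15.8 (log2 difference 2.27, standard error 0.95). Lcn2, an iron-scavenging protein of neutrophils and epithelia and one of the lower genes, had 47.2 and 71.3 against 1170 and 75.7 normalized counts. Its log2 difference of -2.34 was -0.38 without replicate 11.

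A further list held 18 genes that the study named for recovered urethras. They were chosen on data of this series, so their direction here is not independent evidence. The study set recovered against non-recovered urethras and does not state which samples were non-recovered. It reports no measurable function on this day for the saline and MABs allo groups. Its comparison may thus have held other samples than the 4 urethras tested here, and the counts below do not repeat its test. Of the 18, 9 passed the filter of 10 normalized counts. Of these 9, 0 were DEGs with limma, edgeR or DESeq2, 5 had an unadjusted p below 0.05, and the lowest adjusted p was 0.875 from limma. Arhgap18, a GTPase activator that turns off RhoA and shapes the actin cytoskeleton, had 1600 and 1614 normalized counts in recovered and 751 and 532.7 in other urethras, against 499 to 1121 in the reference. Both recovered urethras were above every reference sample, and the log2 difference was 1.34 (standard error 0.26, adjusted p = 0.875 from limma). Apcdd1l, related to the Wnt inhibitor Apcdd1, had 232.2 and 119.8 against 43.4 and 28.4, with a reference of 18.3 to 74.3 (log2 difference 2.22, standard error 0.56, adjusted p = 0.90 from limma).

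For the other 16 genes of that list the recovered urethras were low, but one of the other urethras often was as well. Both recovered urethras were below all 8 reference samples for 12 of the 16 genes, replicate 12 was below them for 10 and replicate 11 for 4. For 15 of the 16 genes all 4 urethras were under the reference median, the exception being Noxo1. Recovered and other urethras did not overlap for 9 of the 16, and for 7 genes replicate 12 was at or below a recovered urethra. The adipocyte hormone gene Adipoq had 14.5 and 2.85 normalized counts in recovered urethras, 418.9 in replicate 11 and 18.9 in replicate 12, against 86.1 to 5569 in the reference. Its log2 difference of -3.56 (standard error 1.54, adjusted p = 0.90 from limma) was -1.37 without replicate 11. Retn, which encodes resistin, had 7.26 and 14.3 against 229.6 and 18.9, and Pck1, an enzyme of gluconeogenesis and glyceroneogenesis, had 3.63 and 8.56 against 282.4 and 18.9 normalized counts. The lipid droplet gene Plin1 had 10.9 and 8.56 against 217.2 and 3.15, so that its log2 difference of -1.50 became 1.36 without replicate 11. Cidec, another lipid droplet gene, had 1 read in each recovered urethra, 31 reads in replicate 11 and 1 in replicate 12. These adipocyte genes thus were as low or nearly as low in replicate 12 as in the recovered urethras.

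For Noxo1, Slc1a3, Ccl3, Ccl4 and Cd27 both other urethras lay above both recovered ones without replicate 11 standing alone. Noxo1, an organizer of the superoxide-producing NADPH oxidase NOX1, had 7.26 and 11.4 normalized counts in recovered and 43.4 and 129.2 in other urethras (log2 difference -2.91, standard error 0.84). The glutamate transporter gene Slc1a3 had 58 and 48.5 against 145.9 and 107.2, and 139.1 to 652.2 in the reference (log2 difference -1.22, standard error 0.47). Both had an adjusted p of 0.90 from limma. Ccl3, a macrophage chemokine, had 1 and 0 reads in recovered and 4 and 5 in other urethras, a ratio of 8.81 (95% exact counting interval 1.22 to 386.3). Ccl4, which acts on the same receptor, had 0 reads in recovered urethras and 4 and 2 in the others, at least 1.96-fold lower against a floor of 3 reads over the group. Cd27, a lymphocyte receptor of the TNF family, had 0 reads against 2 and 4, at least 1.96-fold lower. The remaining genes of the list had few reads. Akr1c3, a steroid-converting enzyme, had 0 reads in recovered urethras and in replicate 12, and 5 in replicate 11. It was at least 1.63-fold lower against the same floor, a difference carried by replicate 11 alone. Angpt4, an angiopoietin, and Ankef1 each had 0 reads in 3 urethras and 3 reads in replicate 11, Krtdap, a keratinocyte gene, had 1 read in replicate 11 and 0 elsewhere, and the steroidogenic enzyme Cyp11a1 had 0, 1, 1 and 2 reads. Aqp7, the glycerol channel of adipocytes, had 1 and 2 reads against 2 and 1. With at most 3 reads in either group, a difference in these 5 genes was not detectable at this depth. Intervals and floors cover counting error only.

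**Figure D3:**
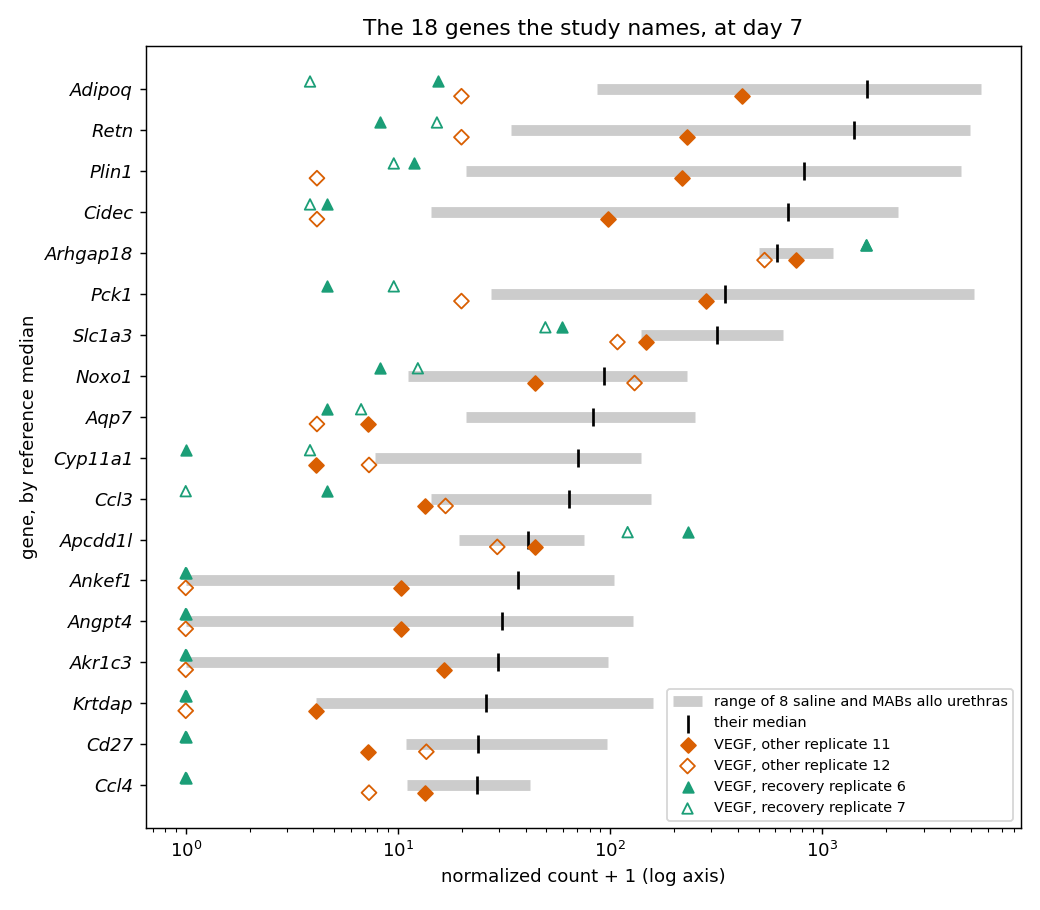
Normalized counts + 1 on a log axis for the 18 listed genes, with green triangles for the recovered and orange diamonds for the other MABs allo-VEGF urethras, grey bars for the range of the 8 reference urethras and ticks for their median. Arhgap18 and Apcdd1l lie above the bar in both recovered urethras, and for Plin1, Cidec and Aqp7 the open diamond of replicate 12 lies with or below the triangles.

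The adipocyte list, which shares genes such as Adipoq, Retn and Pck1 with those 18, partly restates them. Of 20 adipocyte genes tested, 15 had a lower mean in recovered urethras, 6 were lower and 1 higher without overlap, and the median of -0.72 was 0.0036 without replicate 11, and -0.40 without replicate 7. Both recovered urethras were below the reference for 9 of the 20. The summed level of the list was 23155 and 19271 normalized counts in recovered and 37417 and 15683 in other urethras, against 22126 to 132943 in the reference, a comparison with an exact permutation p of 1. Lipe, the hormone-sensitive lipase, was the 1 gene higher without overlap, with 7962 and 6960 against 4624 and 5126.

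Some large differences were in genes known from glandular secretions, which were not a fixed list. Oprpn, a proline-rich secretory protein, had 5902 and 3334 normalized counts in recovered urethras and 9.31 and 119.8 in the others, with 1.67 to 1852 in the reference (log2 difference 6.97, standard error 1.07, adjusted p = 0.407 from limma, 0.449 from edgeR and 0.0112 from DESeq2). Vcsa2, of the same submandibular gland protein family, had 1310 and 1095 against 121 and 56.7, and its reference reached 105.3 (log2 difference 3.84, standard error 0.43, adjusted p = 0.154 from limma). Recovered urethras were above every reference sample for both genes. Smr3b, a further member, had 116593 and 169664 normalized counts against 57272 and 32264, and 213.5 to 42545 in the reference. Fdcsp, a small secreted peptide gene, had 522.4 and 462.1 against 108.6 and 132.4, while 5 of the 8 reference samples had 0 and the highest had 44. Smr3b and Fdcsp were chosen after their values were seen, and for both genes at least 1 of the other urethras also exceeded the reference. Smr and Vcsa genes have related copies, which makes their counts uncertain. S100g, the calcium binder calbindin-D9k, had 3341 and 2071 against 798 and 41. Only replicate 12 lay outside the reference of 93.4 to 3660, and the log2 difference of 3.85 was 1.72 without it.

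The remaining genes among the 12 largest differences upward were mostly of low count. Rbfox3, a neuronal splicing factor, had 39 and 28 reads against 1 and 2, a ratio of 22.8 (95% exact counting interval 7.48 to 113.4). Rxfp3, the relaxin-3 receptor, had 24 and 11 reads against 0 and 1. Wwc1, a regulator of Hippo signalling, had 627.6 and 604.7 normalized counts against 245.2 and 9.46, and Fjx1, a secreted protein of the four-jointed family, 105.2 and 94.1 against 15.5 and 3.15. Hmg1l1 had 85 and 3 reads against 2 and 0, so that replicate 6 alone carried it. Pigf, Aspg and the small RNA gene U2, which has many copies, completed the 12 largest, with log2 differences of 4.24, 3.74 and 3.67. None of the 12 apart from RT1-Bb passed the limma test.

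Among the 12 largest differences downward, Cyp1a1, an enzyme induced through the aryl hydrocarbon receptor, had 2 and 0 reads in recovered and 36 and 214 in other urethras, a ratio of 122.4 (95% exact counting interval 33.5 to 1016). Its adjusted p was 0.875 from limma, 0.853 from edgeR and 0.000146 from DESeq2, and its reference ran from 0 to 166.8 normalized counts. Sectm1b had 1 and 0 reads against 49 and 16, and Cym, which encodes chymosin, 0 and 1 against 13 and 34. Vat1l had 0 reads in recovered urethras and 66 and 2 in the others, at least 22.2-fold lower, and Lalba, the milk protein alpha-lactalbumin, 0 and 1 against 188 and 3, both carried by replicate 11. Crispld1, Sapcd2, the granzyme gene Gzmk and Fetub had log2 differences of -4.34 to -3.84, with at most 74.5 normalized counts in any of the 4 urethras.

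Genes of cholesterol synthesis were higher in recovered urethras as a group, with no member a DEG by any of the 3 tools. The steps from acetyl-CoA to sterols are under common control by the SREBP2 factor in animal cells. Of 17 listed genes of sterol and steroid synthesis in the table, 11 passed the filter, and 8 of these were higher without overlap and 1 lower, against backgrounds of 19.4% and 16.3%. The median log2 difference was 0.89, and 0.94 without replicate 11. Fdps, which makes farnesyl diphosphate, had 2169 and 1295 normalized counts in recovered and 651.7 and 725 in other urethras (log2 difference 1.28, standard error 0.31). Cyp51, the lanosterol demethylase, had 2953 and 1686 against 893.8 and 952 (log2 difference 1.27, standard error 0.31). Both groups were separate for each of these genes. Idi1, an isomerase of the early pathway, had 2213 and 2171 against 1037 and 955.2 (log2 difference 1.14, standard error 0.22, adjusted p = 0.846 from limma). Insig1, the sterol-sensing brake on SREBP, had 892.4 and 804.4 against 394.1 and 413 (log2 difference 1.07, standard error 0.25). Sqle had 1382 and 1164 against 577.2 and 677.8. The synthase Hmgcs1 had a smaller log2 difference of 0.70. Recovered replicate 6 was above all 8 reference samples for Fdps, Cyp51 and Sqle, and both recovered urethras were above them for 1 gene, Hmgcs1, with 3947 and 4418 against a highest reference of 3833. The 1 gene lower without overlap was Hsd17b1, an enzyme of estradiol synthesis, with 25.4 and 34.2 against 77.6 and 47.3. The summed level of the list was 25886 and 24266 in recovered and 14409 and 14283 in other urethras (exact permutation p = 0.333, the smallest possible), and 9603 to 26600 in the reference.

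The promoters of 3 of these genes, which shared a direction, are printed on GRCr8 from RefSeq and with the same window as above. Of the 5 higher genes with a promoter entry, these are the 3 with 2 CCAAT each. Insig1 held 1 and Cyp51 held 0, so the printed promoters favour the motif. Capitals mark CCAAT on either strand, a motif bound by NF-Y, a known partner of SREBP. Fdps lies at chr2:176804767-176805066 (- strand), Hmgcs1 at chr2:53382054-53382353 (+ strand) and Idi1 at chr17:66547475-66547774 (- strand).
Fdps: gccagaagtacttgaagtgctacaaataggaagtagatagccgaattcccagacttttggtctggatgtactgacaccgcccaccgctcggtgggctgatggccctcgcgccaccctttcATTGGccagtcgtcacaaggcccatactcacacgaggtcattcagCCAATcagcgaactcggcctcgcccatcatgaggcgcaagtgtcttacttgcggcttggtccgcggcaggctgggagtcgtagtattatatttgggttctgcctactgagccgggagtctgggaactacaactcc
Hmgcs1: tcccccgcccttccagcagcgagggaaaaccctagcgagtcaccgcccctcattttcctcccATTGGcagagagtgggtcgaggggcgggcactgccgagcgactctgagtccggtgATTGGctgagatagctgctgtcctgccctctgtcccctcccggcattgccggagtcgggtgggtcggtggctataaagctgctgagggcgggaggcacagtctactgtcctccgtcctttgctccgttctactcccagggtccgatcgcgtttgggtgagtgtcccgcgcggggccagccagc
Idi1: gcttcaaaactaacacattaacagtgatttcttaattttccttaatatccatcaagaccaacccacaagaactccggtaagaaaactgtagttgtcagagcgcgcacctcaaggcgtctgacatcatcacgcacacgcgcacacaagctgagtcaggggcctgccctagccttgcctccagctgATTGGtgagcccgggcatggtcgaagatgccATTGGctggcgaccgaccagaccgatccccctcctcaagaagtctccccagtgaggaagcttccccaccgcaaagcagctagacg
Of the 8 genes higher without overlap, 5 had an entry in the promoter table and 4 of these held CCAAT, with Cyp51 as the exception, where 37.5% of the 33469 promoters hold it. The sterol-response-like motif TCACNCCAC, searched on both strands and not overlapping CCAAT in its letters, was in 0 of the 5 windows and in 1.12% of all promoters. A match in letters is a description and not a site.

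Smooth muscle genes were higher in recovered urethras in most cases, with Myocd the 1 gene without overlap beyond a log2 difference of 1. Of 17 tested, 16 had a higher mean, 11 were higher without overlap and 1 lower, and the median was 0.77, or 0.40 without replicate 11 and 0.49 without replicate 7. Both recovered urethras were above the reference for 0 of the 17, and both other urethras were below it for 2. Acta2, smooth muscle actin, had 69330 and 114253 normalized counts in recovered and 47521 and 68711 in other urethras, the latter both below the lowest reference value of 69191. Des, which encodes desmin, had 26525 and 35068 against 16274 and 17524, and Tagln, an actin-binding protein, 19937 and 30004 against 14452 and 13303. Cnn1, which encodes calponin, had 18965 and 28510 against 9208 and 15024 (log2 difference 0.98, standard error 0.34), and Actg2, the visceral smooth muscle actin, 13219 and 21707 against 8031 and 9857. Myocd, the coactivator of the smooth muscle programme, had 94.3 and 125.5 against 9.31 and 82 (log2 difference 1.91, or 0.40 without replicate 11, which had 3 reads). For each the recovered urethras were above the others, though replicate 6 and replicate 12 were close for Acta2. Myh11, smooth muscle myosin, overlapped, with 36914 and 57014 against 24805 and 39524. Chrm3, the muscarinic receptor that drives contraction, was the 1 gene lower without overlap (log2 difference -0.91). The lowest adjusted p of the 17 genes was 0.90 from limma.

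Genes of small GTPase signalling and the actin cytoskeleton included 12 higher and 2 lower without overlap of 23 tested, with a median of 0.39, which was 0.21 without replicate 11 and 0.20 without replicate 12. Both recovered urethras exceeded the reference for 4 of the 23. The kinases Rock1 and Rock2, effectors of RhoA, had log2 differences of 0.62 and 0.54, and Rhoa itself 0.05. Srgap1, a GTPase activator for Cdc42 and Rac, had 54.4 and 48.5 normalized counts against 12.4 and 28.4. Rac2, the Rac of blood cells and one of the 2 lower genes, had 206.8 and 219.6 against 403.4 and 573.7. Actb, cytoplasmic actin, chosen after its values were seen, had 8296 and 7405 against 2914 and 2995 (log2 difference 1.41, standard error 0.21, adjusted p = 0.407 from limma, 0.662 from edgeR and 0.00092 from DESeq2) and a reference of 2053 to 6758.

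Striated muscle gave no common direction. Of 21 mature skeletal muscle genes, 6 were higher and 2 lower without overlap, with a median of -0.13 that moved to 0.14 without replicate 6, -0.36 without replicate 7, 0.35 without replicate 11 and -0.59 without replicate 12. The slow-fibre genes Myh7, with 2050 and 1614 normalized counts against 1310 and 340.5, and Tnnc1, with 2782 and 4196 against 1580 and 1797, were higher without overlap, and the fast-fibre gene Actn3 was lower, with 188.6 and 128.4 against 1297 and 233.3. The log2 difference of Myh7, 1.44, was 0.47 without replicate 12, and that of Actn3, -1.82, was -0.58 without replicate 11. The fast-fibre genes Myh4, with 23808 and 37603 against 44902 and 25985, and Mylpf, with 17949 and 22828 against 33708 and 18879, overlapped. Myh3, the embryonic myosin of regenerating fibres, had 1056 and 735.9 against 2265 and 3556 (log2 difference -1.69, standard error 0.32, adjusted p = 0.846 from limma, 0.795 from edgeR and 0.00559 from DESeq2), and Mymk, which encodes the fusion protein myomaker, 221.3 and 62.8 against 387.9 and 277.4. The atrophy ligases ran the other way, with Trim63 at 5521 and 1666 against 1639 and 983.5 and Fbxo32 at 1730 and 1018 against 350.7 and 762.9. For Trim63 replicates 7 and 11 were close, and its log2 difference of 1.26 was 0.39 without replicate 6. Over the 19 genes of myogenic regeneration the median was 0.05, and -0.47 to 0.17 without 1 urethra, with 3 higher and 4 lower without overlap. Of 11 neuromuscular junction genes, 0 were higher and 4 lower without overlap. Among the 4 were the acetylcholine receptor subunit Chrnd, with 827.1 and 636.1 against 1350 and 1198, and the agrin receptor Lrp4, with 304.7 and 248.2 against 502.7 and 447.6. The median of the 11 genes was -0.13, which became 0.03 without replicate 11 and -0.49 without replicate 12.

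The delivered factor and the vessel genes were compared next. The rat gene Vegfa had 562.3 and 1121 normalized counts in recovered and 828.6 and 772.3 in other urethras, within the reference of 555.5 to 1146 (log2 difference -0.01, standard error 0.37, adjusted p = 0.996 from limma). A contribution of lentiviral VEGF165 reads to its count was not tested. Cd34 had 4 and 4 reads against 6 and 1. Of 23 endothelial and angiogenic genes, 8 were higher and 3 lower without overlap, with a median of 0.31. It was 0.087 without replicate 6, 0.14 without replicate 12 and 0.46 without replicate 11. Vegfb, a ligand of the receptor Flt1, had 101.6 and 99.8 against 15.5 and 28.4, and the VEGF co-receptor Nrp1 1313 and 1130 against 642.4 and 791.2, above the highest reference value of 980.1. The related Nrp2, a receptor of lymphatic endothelium, ran the other way, with 921.4 and 1161 against 1732 and 1646. Kdr, the main VEGF receptor, had 975.8 and 790.1 against 698.2 and 715.6, a log2 difference of 0.31 (standard error 0.25). Of 11 pericyte and mesoangioblast genes, 8 had a lower mean in recovered urethras, and 3 were higher and 2 lower without overlap. Their median was -0.18, which was 0.02 without replicate 6 and -0.36 without replicate 7. Pdgfrb, a pericyte receptor, had 1495 and 1306 against 806.9 and 819.6. The 2 lower genes were Thy1, a surface glycoprotein of mesenchymal cells and neurons, with 14.5 and 5.70 against 83.8 and 72.5, and Alpl, with 199.5 and 168.3 against 329 and 242.7.

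Replicate 11 carried most of the difference in nerve genes. Gap43, a growth cone protein of regrowing axons, had 424.4 and 310.9 normalized counts in recovered and 450 and 233.3 in other urethras, so that the groups overlapped (log2 difference 0.16, standard error 0.41). The 17 axon growth genes had a median of -0.05, or 0.37 without replicate 11 and -0.31 without replicate 12. Bdnf, a neurotrophin gene, had 36.3 and 31.4 against 21.7 and 12.6. Prph, the peripheral neuron filament peripherin, had 486.1 and 539.1 against 294.8 and 290, above the highest reference value of 404. Among 16 Schwann cell and myelin genes, 13 had a lower mean in recovered urethras, with a median of -0.73 that became 0.69 without replicate 11 and -1.94 without replicate 12. Mbp, myelin basic protein, had 362.8 and 430.7 against 9046 and 261.6. Egr2, the factor that drives myelination, had 90.7 and 37.1 against 639.3 and 113.5 normalized counts.

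Proliferation genes had lower means in recovered urethras, with no member a DEG. Of 20 cell cycle genes, 19 had a lower mean, 7 were lower and 0 higher without overlap, 4 of these beyond a log2 difference of 1, and the median was -0.96. It was -0.15 without recovered replicate 7, where 7 genes were higher and 13 lower, -1.45 without replicate 6 and -0.55 without replicate 11. The summed level of the list was 5844 and 5979 in recovered and 9490 and 5794 in other urethras (exact permutation p = 1), so that replicate 12 was below both recovered urethras. The mitotic kinase Plk1 had 166.9 and 99.8 normalized counts against 459.3 and 252.2, and Aurka 87.1 and 57 against 161.4 and 132.4. Birc5, which encodes survivin, had 272.1 and 94.1 against 431.4 and 315.2. Top2a overlapped, with 580.4 and 116.9 against 831.7 and 447.6. The values of replicate 7 were the lowest of the 4 for these 4 genes. Haemoglobin and other erythroid genes, a measure of blood in the tissue, took 5.31% of reads in replicate 6, 0.441% in replicate 7, 3.29% in replicate 11 and 6.12% in replicate 12, so that replicate 7 was also the lowest there. All 7 erythroid genes had a lower mean in recovered urethras with none free of overlap, and the direction rests on replicate 7. Their median of -1.55 was 0.52 without it, with all 7 genes then higher, and -3.93 without replicate 6.

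Redox, epithelial, Wnt and matrix genes gave mixed directions. Of 23 genes of antioxidant enzymes and oxidases, 2 were higher and 9 lower without overlap, 1 of these beyond a log2 difference of 1 (Noxo1), with a median of -0.24, or -0.02 without replicate 7. Gpx3, the secreted glutathione peroxidase, had 1799 and 1090 normalized counts against 3575 and 1872, and the NADPH oxidase subunits Cyba and Ncf1 had 877.9 and 912.8 against 1161 and 1478, and 210.4 and 379.4 against 459.3 and 529.6. Of 12 urothelial genes, 5 were higher and 0 lower without overlap, with a median of 0.58 that moved to 0.07 without replicate 11 and 1.09 without replicate 12. Upk2, a uroplakin of the luminal plaque, had 192.3 and 333.7 against 96.2 and 151.3 normalized counts, all in the low end of a reference of 79.5 to 11371. Among 12 squamous epithelial genes Krt4 had 308.3 and 370.8 against 83.8 and 85.1, and Krt1, a late differentiation keratin, 5242 and 2593 against 6188 and 8373. Of 21 Wnt pathway genes, 5 were higher and 5 lower without overlap. The target gene Axin2 had 337.4 and 131.2 against 102.4 and 56.7, and the Wnt agonist Rspo1 18.1 and 8.56 against 471.7 and 59.9. The 21 collagen and matrix genes had a median of 0.11 over opposed libraries. It was -0.75 without replicate 6, with 16 genes lower, and 0.81 without replicate 7, with 20 higher, and it was 0.72 without replicate 11 and -0.62 without replicate 12. The 14 proteases and inhibitors had a median of 0.23, and -0.26 to 0.53 without 1 urethra. Col5a1, a fibrillar collagen chain, had 442.6 and 148.3 against 93.1 and 22.1, and Loxl2, a collagen crosslinking enzyme, 1843 and 1432 against 977.5 and 576.9. Timp3, a protease inhibitor gene, had 3805 and 3406 against 1927 and 2134 and was higher without overlap. The immediate early factor Klf4 had 9613 and 4587 against 2855 and 3546, and Egr1, another, 6120 and 2510 against 10452 and 6223. Of 20 immediate early genes 6 were higher and 6 lower without overlap, of 16 hypoxia and glycolysis genes 3 and 1, of 26 ribosomal protein entries 2 and 9, and of 13 mitochondrially encoded genes 1 and 4.

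**Figure D4:**
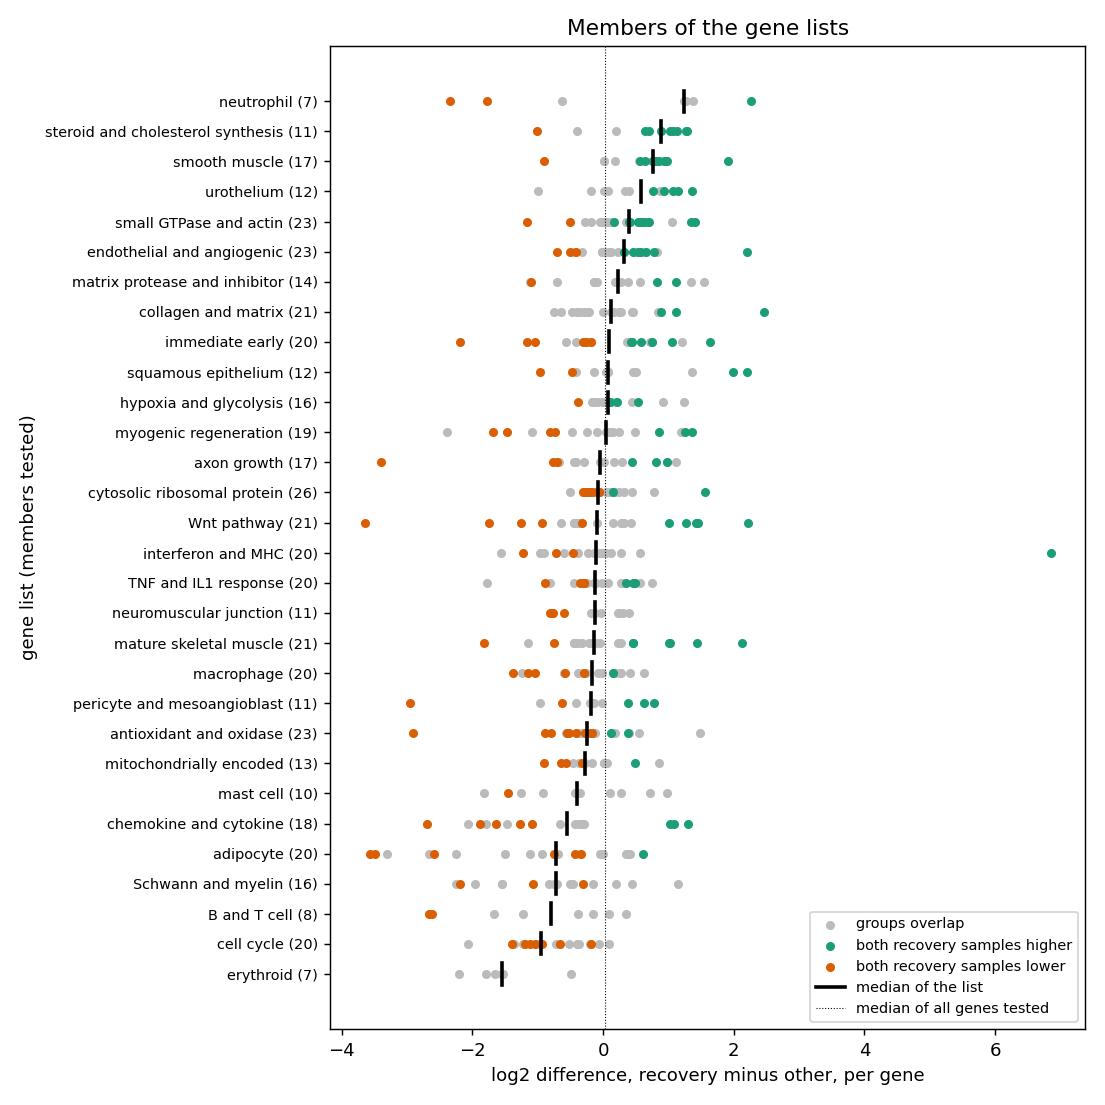
Log2 difference of each tested gene (recovered minus other MABs allo-VEGF urethras, horizontal) by gene list (vertical, with the number of members tested), with green and orange points for genes higher and lower without overlap, grey points for overlap, black bars for list medians and a dotted line for the median of all genes, 0.02. Neutrophil (median 1.24, 7 genes), sterol synthesis (0.89, 11 genes) and smooth muscle (0.77) genes lie to the right. Without replicate 11 these medians are -0.38, 0.94 and 0.40. Cell cycle (-0.96) and erythroid (-1.55) genes lie to the left, both resting on recovered replicate 7, without which they are -0.15 and 0.52.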

How the data were processed

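The deposited signal is a normalized gene count: the authors sequenced QuantSeq 3ʹ libraries of whole urethra, mapped trimmed reads onto Rnor6.0 (HISAT2), kept uniquely placed ones, counted them per gene (HTSeq) and applied DESeq2 size factors. The table holds 32883 genes and 24 samples. Every value was a multiple of the worth of 1 read (tolerance 0.01, 100% of values), so reads could be recovered.

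Groups came from the labels. Only the 4 urethras entered the test (limma 3.58.1, R 4.3.3, trended prior) on log2(value + 1), which understates changes of low genes, with a mean of at least 10. edgeR 4.0.16 (quasi-likelihood, TMM) and DESeq2 1.42.0 on the reads were alternatives, and the tests were checked on simulated data. The labels do not say whether replicates are separate animals, and p-values measure only the spread between these samples. Named genes were 18 genes from the study's text, Vegfa, Cd34, Gap43, all DEGs, the 12 largest differences each way without overlap at a mean of at least 20 (clone-based names left out), and up to 4 such genes of each list. Further genes (C3, Actb, Smr3b, Fdcsp, Myh3, Krt4, Cyp1a1, RT1, milk and marker genes, and other list members) were chosen after their values were seen. The members and all lists were chosen with earlier results of these data known.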

Additional observations from a re-analysis of the deposited data

Results flagged for a closer look

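Groups of 4 reference urethras were examined for a sample far from the other 3, over 57 summed lists and genes in 2 groups. Of 114 such tests 14 passed Dixon's critical value for 4 samples, and chance flags about 1 in 20. All values are normalized counts, and they enter the report only through the reference ranges.

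In saline urethras, the adipocyte genes summed to 29593 in replicate 1 (88995 to 94621 in the others), the hypoxia and glycolysis genes to 27939 in replicate 2 (34001 to 35150), and the milk genes to 65461 in replicate 3 (142 to 433). In MABs allo urethras, replicate 13 had the collagen and matrix genes at 790386 (327205 to 361126), the antioxidant and oxidase genes at 177021 (60546 to 71183), the erythroid genes at 1.9174e+06 (176439 to 270383), Arhgap18 at 1121 (596 to 669) and Plin1 at 4511 (19.9 to 736). Replicate 9 had the chemokine genes at 50423 (10201 to 13468), the pericyte and mesoangioblast genes at 17940 (12695 to 13304) and Vegfa at 1146 (555 to 638). Replicate 11 had the cell cycle genes at 19345 (5405 to 6596) and Pck1 at 1681 (26.5 to 300). Replicate 7.2 had Cd27 at 96.0 (9.93 to 20.8).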

How the results depend on the processing

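No paired analysis was possible because the compared groups share no replicate number (6 and 7 against 11 and 12). The limma test of the 4 urethras called RT1-Bb and LOC102555453, 2 genes. It called 0 with the 12 samples of day 7, with all 24 samples and without a filter (538, 338 and 786 genes at an unadjusted p below 0.05), while edgeR on the reads called 4 and DESeq2 36. Leaving out 1 urethra, with the lone sample assumed to vary like the other group, gave 0 to 8 called genes, 0 without recovered replicate 6, recovered replicate 7 or other replicate 11 (376, 444 and 815 at an unadjusted p below 0.05) and 8 without other replicate 12, RT1-Bb among them and LOC102555453 not. Genes without overlap and beyond a log2 difference of 1 numbered 1090 in the main setting, 1724 with a filter at a mean of 2, 522 at a mean of 50 and 1823 without one, and 1735 to 2428 when 1 urethra was left out, which makes separation easier. For these counts fewer or more genes tested and fewer samples are part of the setting.

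Of 151 named genes tested, 140 kept their direction under every alternative and 11 reversed somewhere. Among all comparisons of named genes with alternatives, 27 passed the threshold that they had missed in the 4 urethras and 13 no longer passed it. The log2 difference of RT1-Ba was -0.028 with quantile normalization, -0.11 with edgeR and -0.11 with DESeq2, and -0.53 to 0.54 without 1 urethra. Vegfa was 0.016 with equal totals, 0.050 with edgeR and 0.051 with DESeq2, and -0.51 to 0.49 without 1 urethra. Gap43 ranged from -0.31 to 0.64 and Cd34 from -0.50 to 1.74. The others reversed without other replicate 11, with lowest and highest log2 differences without 1 urethra of -7.76 and 1.79 for Csn3, -4.52 and 0.024 for Cidec, -4.36 and 1.36 for Plin1, -7.93 and 0.28 for Olah, -4.51 and 0.59 for Mbp, -10.33 and 1.96 for Csn1s1, and -9.51 and 1.10 for Wap. The cause was not tested. Depth limits genes with few reads, such as 9 of the 18 genes from the study's text.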
